A study of Rattus norvegicus with 20 samples.

Results

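The genes described here build, cross-link, cut and regulate the extracellular matrix of the rat liver. They were chosen by symbol: the collagen chains, laminins, fibronectin, fibrillins, fibulins, elastin, Sparc and Sparcl1, the proteoglycans decorin, lumican, biglycan and versican, the thrombospondins, periostin, the lysyl oxidases, the matrix metalloproteinases and their Timp inhibitors, the numbered Adamts proteases, the latent TGF-beta binding proteins and the TGF-beta ligands, with nidogens, perlecan, emilins and Efemp1 and Efemp2. Of 14557 genes that the array annotation gave as a single symbol, 95 matched, and each was read from 1 probe set. Adamts8 had several, of which the brightest was taken. The matching by symbol used no measured value, whereas the choice among probe sets used their mean over the arrays. Versican, the emilins, perlecan (Hspg2), nidogen-1 (Nid1), Col18a1, Thbs1, Timp2, Tgfb2 and Tgfbi had no probe set with a single symbol and are not analysed here.

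The hepatic matrix is a thin mixture of fibrillar collagens, basement membrane proteins, glycoproteins and elastic fibres that lies between hepatocytes and the sinusoidal endothelium and around the portal tracts. Stellate cells and portal fibroblasts make most of its collagens, hepatocytes secrete plasma fibronectin, and sinusoidal endothelial cells and macrophages add to its turnover. Metalloproteinases and Adamts proteases cut these proteins, Timp proteins block the metalloproteinases, and TGF-beta, stored in the matrix in a latent form, is the main growth factor that raises matrix synthesis in injured liver.

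The rats were male, and their liver RNA was measured on Affymetrix whole-transcript arrays with 5 arrays in each of 4 groups. The labels speak of ZDF (Zucker diabetic fatty) rats throughout and give Zucker as strain, while the study sets its lean controls apart from the ZDF rats, which are predisposed to diabetes by their genotype. Lean control rats ate a standard chow, and obese rats received a stock diet for 6 weeks. The other groups are labelled rosiglitazone, a thiazolidinedione that activates PPAR-gamma, and resveratrol, a plant polyphenol. All were housed singly with free access to food and water, and the labels state neither genotype nor age, nor the dose, duration or body type of the treated rats, so the treated groups are compared with both untreated groups. The arrays are labelled as biological replicates, and with 5 of them in a group the precision of each mean is limited.

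Values are on the log2 scale, so a difference of 1 is a doubling. The 20 arrays had medians between 2.36 and 2.53 over all probe sets, and any pair correlated at 0.947 to 0.982. The 6 hepatocyte markers, albumin among them, averaged 10.24 to 10.64 per array on a scale that ended at 12.25, and none was called between groups. Of the 95 matrix genes, 67 exceeded the median of 5 or more arrays and entered the test, and 42 lay above it in all 20. The other 28 had means of 2.19 or less. These were Mmp1, Mmp3, Mmp7, Mmp9, Mmp10, Mmp11, Mmp13, Mmp20 and Mmp27, Adamts14, Adamts15, Adamts18 and Adamts19, the collagen chains Col4a6, Col7a1, Col11a1, Col17a1, Col19a1, Col20a1, Col24a1, Col25a1 and Col28a1, and Fbln7, Fbn2, Lama1, Lamc3, lumican (Lum) and periostin (Postn). In whole liver, fewer cells of a type and less RNA per cell cannot be told apart.

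Across the 6 comparisons of the 4 groups, the matrix genes with an adjusted p under 0.05 in limma's moderated test (Benjamini-Hochberg over the 9481 genes tested) were Mmp23, Mmp2, Thbs2, Adamts1 and Dcn. Mmp23 rose under rosiglitazone against obese, and it was higher in both treated groups than in lean controls. Mmp2, Thbs2 and Adamts1 were lower, and Dcn higher, in rosiglitazone than in lean control livers. No matrix gene passed the test between obese and lean control, between resveratrol and obese, or between rosiglitazone and resveratrol.

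RefSeq promoters of the GRCr8 build, 250 bases upstream of the start site, were at hand for 70 of the 95 genes. They are shown for Mmp23 and Adamts1, which passed the test, and for Ltbp3, which had the smallest p among matrix genes for resveratrol against obese. Mmp2, Thbs2 and Dcn had no entry. Capitals mark a GC box (GGGCGG on either strand), a CCAAT box (CCAAT) or a TATA box (TATAAA).
Mmp23, chr5:171524535-171524784, minus strand: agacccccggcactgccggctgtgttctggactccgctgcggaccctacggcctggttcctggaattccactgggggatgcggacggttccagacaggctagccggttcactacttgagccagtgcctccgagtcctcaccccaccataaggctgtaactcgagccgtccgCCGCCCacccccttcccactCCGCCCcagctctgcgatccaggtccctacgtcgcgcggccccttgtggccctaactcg
Adamts1, chr11:38427385-38427634, minus strand: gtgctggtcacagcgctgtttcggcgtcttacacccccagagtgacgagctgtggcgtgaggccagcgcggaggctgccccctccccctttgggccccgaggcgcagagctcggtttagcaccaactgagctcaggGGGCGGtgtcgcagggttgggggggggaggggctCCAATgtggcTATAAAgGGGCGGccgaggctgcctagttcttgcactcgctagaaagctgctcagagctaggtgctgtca
Ltbp3, chr1:212458955-212459204, plus strand: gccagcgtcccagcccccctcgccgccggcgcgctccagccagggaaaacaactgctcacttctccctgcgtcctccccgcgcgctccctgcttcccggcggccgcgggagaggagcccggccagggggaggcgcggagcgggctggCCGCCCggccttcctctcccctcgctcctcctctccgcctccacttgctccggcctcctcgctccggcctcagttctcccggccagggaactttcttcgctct
The Mmp23 window held 2 GC boxes, the Ltbp3 window 1, and the Adamts1 window 2 with a CCAAT box and a TATA box. Their GC content was 66.4%, 74% and 65.2% in the order Mmp23, Ltbp3, Adamts1, against a median of 52% over 27457 promoters and 60.2% over the 70 matrix genes. The 27457 promoters were not restricted to protein-coding genes. A GC box stood in 36 of the 70 windows (51.4%) and in 32.4% of all promoters. An AP-1 match (TGANTCA, either strand) stood in 8 of the 70 (11.4%) and in 6.36% of all, a CCAAT box in 20 (28.6% against 34.3%) and a TATA box in 13 (18.6% against 13.1%). A DR1 element, the paired repeat that PPAR dimers bind, was in 0 of the 70 and in 0.0546% of all. Such matches describe the letters of the window and were not tied to any value.

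The counts are best read against those of all genes. For obese against lean control, 172 of 9481 genes passed (1.81%) and 0 of 67 matrix genes, while at an unadjusted p under 0.05 there were 12 matrix genes (17.9%) against 17.4% of all genes. Of those 12, 10 were below lean control (14.9% of the matrix genes, 8.56% of all genes) and 2 above (2.99% and 8.8%). For rosiglitazone against obese, 1.5% of all genes (1.04% higher) and 1 matrix gene passed, and 11 matrix genes (16.4%) against 12.2% of all genes had an unadjusted p under 0.05. For resveratrol against obese, 1 gene of 9481 passed (0.0105%) and 0 matrix genes, with 6 matrix genes (8.96%) against 5.33% at the unadjusted p. Between rosiglitazone and resveratrol, 0.886% of all genes and 0 matrix genes passed, with 5 (7.46%) against 11.9% at the unadjusted p. Rosiglitazone against lean control gave 5 of 67 matrix genes (7.46%), 2 higher and 3 lower, against 2.42% of all genes, 1.01% higher and 1.4% lower, with 12 (17.9%) against 15.5% at the unadjusted p. Resveratrol against lean control gave 1 of 67 (1.49%), higher, against 4.74% of all genes (2.4% higher), with 12 (17.9%) against 20.4% at the unadjusted p.

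The median difference over the 67 genes was small in each comparison. For obese minus lean control it was -0.08, with 26 genes above 0 and 41 below (38.8% above, against 50.6% of all genes tested, whose median was 0.003). For rosiglitazone minus obese it was 0.06, with 40 above and 27 below (59.7%, against 49.2%), and for resveratrol minus obese 0.03, with 38 above and 29 below (56.7%, against 50.3%). These share the 5 obese arrays. Against the shared lean controls it was -0.03 for rosiglitazone, with 30 above and 37 below (44.8%, against 51%), and -0.08 for resveratrol, with 26 above and 41 below (38.8%, against 50.1%). For rosiglitazone minus resveratrol it was 0.02, with 40 above and 27 below (59.7%, against 49.2%). Quantile normalization repeated on the deposited values gave 34 above and 33 below in the comparisons of either treatment with lean control, with medians of 0, and in that of rosiglitazone with resveratrol, with a median of 0.01.

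**Figure D1:**
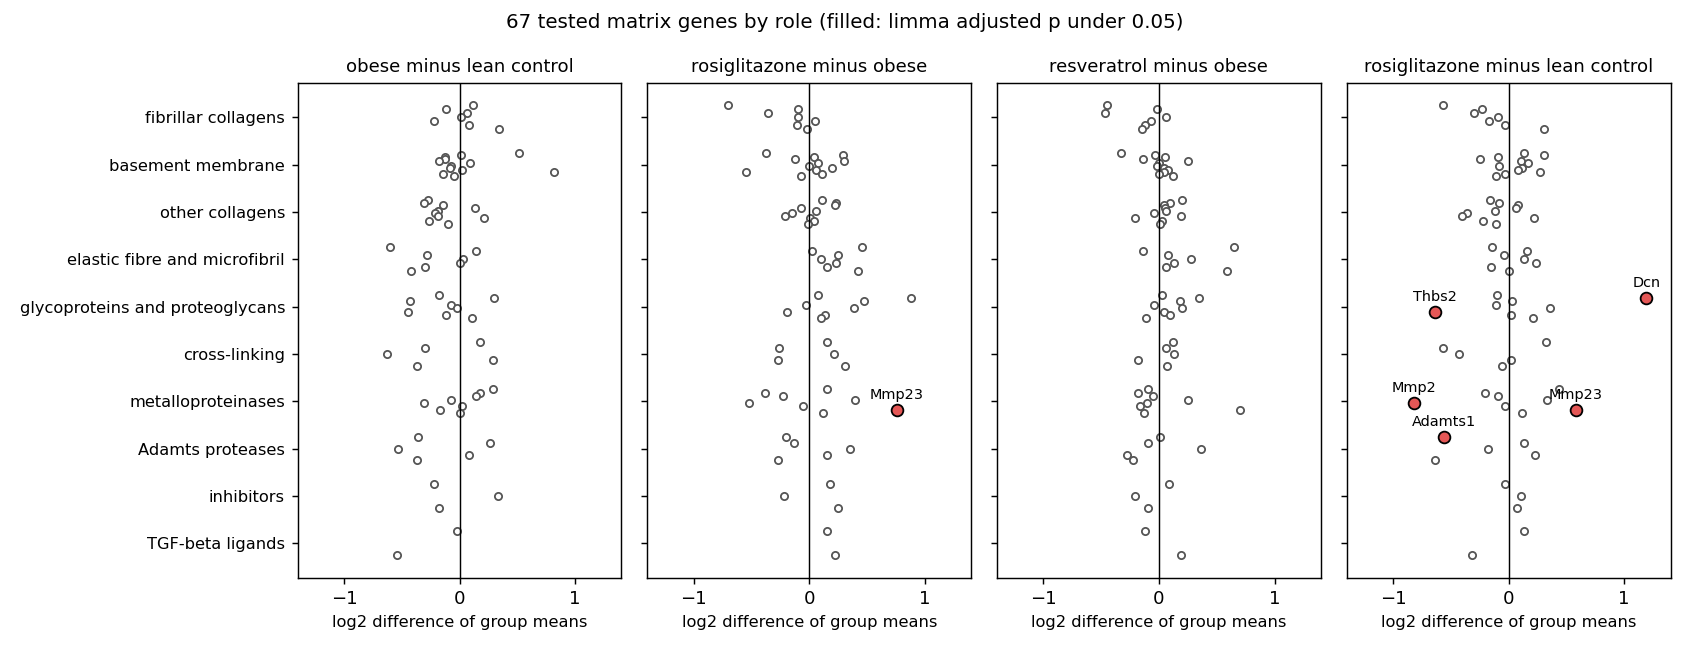
Log2 difference of group means (x axis) for each of the 67 tested matrix genes in 4 comparisons (panels), with genes grouped by role (y axis) and filled points marking an adjusted p under 0.05 in limma. Most points lie within 0.5 of 0 in each panel, 1 point is filled for rosiglitazone minus obese (Mmp23), and 5 for rosiglitazone minus lean control.

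Among the metalloproteinases, Mmp23 was the gene whose level separated treated from obese rats. Mmp23 encodes a membrane-anchored metalloproteinase with a cysteine array and an immunoglobulin-like domain in place of the haemopexin domain of its relatives. Its log2 expression was 2.83, 2.32, 2.24, 2.69 and 2.49 in the obese rats 1 to 5, and 3.38, 3.27, 3.11, 3.17 and 3.42 in the rosiglitazone rats. The resveratrol rats had 3.29, 2.93, 3.19, 3.31 and 3.36, and the lean control rats 2.58, 2.70, 2.18, 2.83 and 3.14. Every rat of both treated groups lay above every obese rat, whereas lean control rat 5 lay among the treated values. Mmp23 exceeded the array median in 17 of the 20 arrays, and obese rats 2 and 3 and lean control rat 3 lay below it. Groups that did not overlap were found for 3 matrix genes (4.48%) and 3.91% of all genes for rosiglitazone against obese, and for Mmp23 alone (1.49%) against 1.18% of all genes for resveratrol against obese.

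Mmp23 rose from 2.51 ± 0.25 in obese to 3.27 ± 0.13 under rosiglitazone (SD, n = 5 each), a log2 difference of 0.76 (SE 0.15, 95% interval 0.44 to 1.07, limma adjusted p = 0.0108), or 1.69-fold. The difference remained past the threshold when any single rat of these groups was left out, at 0.69 to 0.84 with adjusted p between 0.00866 and 0.0455. Under resveratrol the mean was 3.21 ± 0.17, 0.70 above obese (95% interval 0.39 to 1.01), with a limma adjusted p of 0.172, so this difference was not called. The treated groups differed from each other by 0.06 (95% interval -0.26 to 0.37, limma adjusted p = 0.934). Against lean control (2.69 ± 0.35), Mmp23 was 0.58 higher under rosiglitazone (limma adjusted p = 0.0399) and 0.53 higher under resveratrol (limma adjusted p = 0.0454). These calls lay close to the threshold. Leaving out 1 rat of the compared groups at a time gave adjusted p up to 0.0935 for rosiglitazone and 0.102 for resveratrol. The call was lost in 9 of 10 and 8 of 10 of those fits. The exceptions were the fits without lean control rat 5 for both treatments and without resveratrol rat 2 for resveratrol. No matrix gene separated the resveratrol from the lean control rats (0 of 67, against 4.59% of all genes).

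Mmp2, gelatinase A, cuts type IV collagen and denatured collagens and is made largely by stromal cells. Its log2 expression was 4.28, 4.35, 4.25, 4.44 and 4.44 in lean control rats 1 to 5 and 3.47, 3.55, 3.83, 3.44 and 3.33 in rosiglitazone rats. Obese rats had 4.08, 3.76, 4.24, 4.09 and 4.03, and resveratrol rats 3.94, 4.50, 3.74, 3.76 and 3.74. The lean control rats were all above the obese and the rosiglitazone rats, and resveratrol rat 2 was the highest of all 20. Mmp2 was 0.82 lower under rosiglitazone than in lean controls (3.53 ± 0.19 against 4.35 ± 0.09, SE 0.14, 95% interval -1.11 to -0.54, limma adjusted p = 0.00162), or 1.77-fold. The call held without any single rat of these groups. The difference of rosiglitazone minus obese was -0.52 (limma adjusted p = 0.0616), that of obese minus lean control -0.31 (limma adjusted p = 0.241) and that of resveratrol minus lean control -0.41 (limma adjusted p = 0.0827). Without rosiglitazone rat 3, the highest of its group, rosiglitazone minus obese was -0.59 with an adjusted p of 0.0367, and without resveratrol rat 2 resveratrol minus lean control was -0.56 with an adjusted p of 0.0174.

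**Figure D2:**
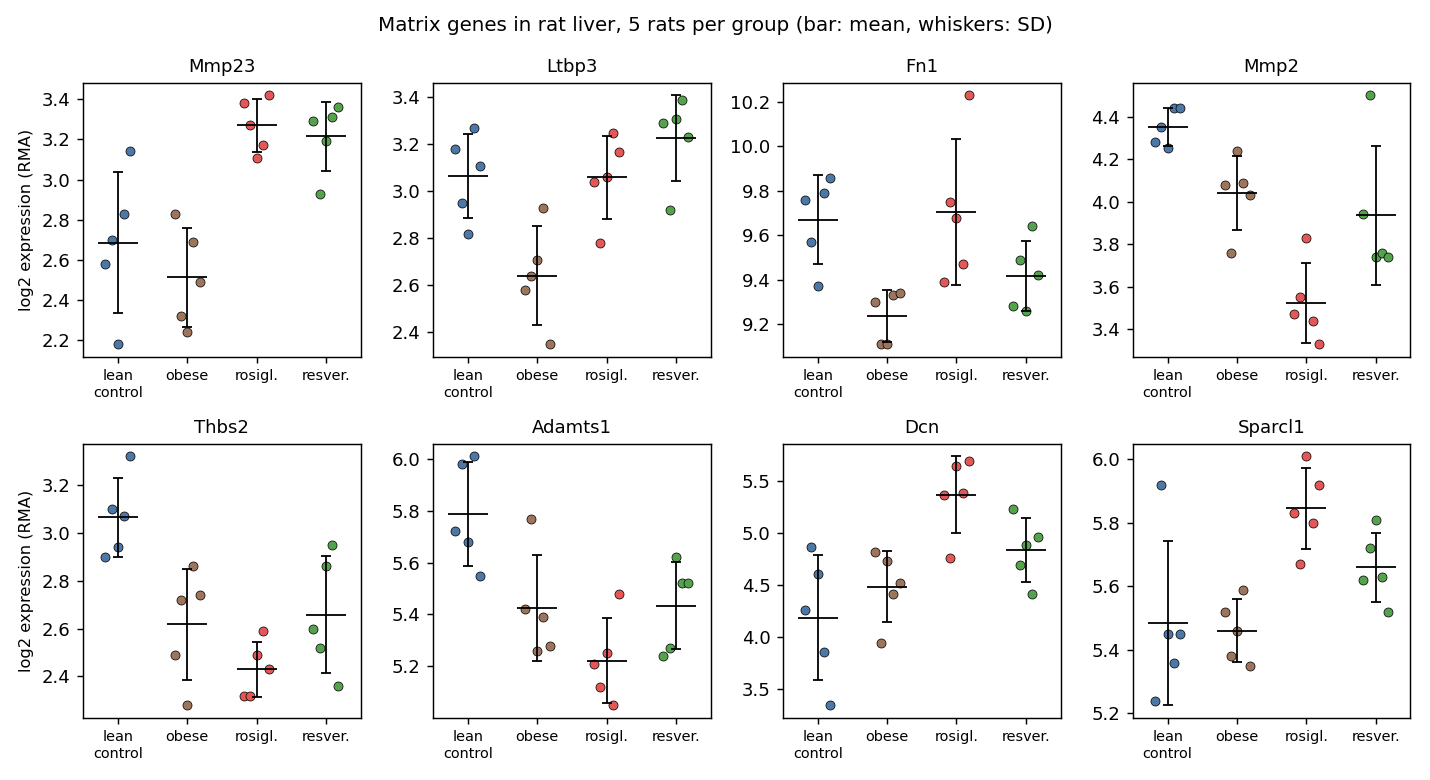
Log2 expression (y axes, which do not start at 0) of 8 matrix genes in each of the 20 livers (points), by group on the x axis, with the group mean (bar) and SD (whiskers), n = 5 per group. The rosiglitazone and resveratrol points of Mmp23 all lie above the obese points, the rosiglitazone points of Mmp2 all lie below the lean control points, and those of Dcn reach up to 5.69.

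The other 6 tested metalloproteinases did not pass the test in any comparison. Mmp14, the membrane-type enzyme that activates the Mmp2 proenzyme, was at 5.33 ± 0.21 in lean control, 5.63 ± 0.16 in obese, 5.77 ± 0.42 in rosiglitazone and 5.54 ± 0.29 in resveratrol livers, and rosiglitazone rat 5 had 6.44. Mmp19 was at 3.54 ± 0.31 under rosiglitazone against 3.14 ± 0.22 in obese (difference 0.40, limma adjusted p = 0.237). Mmp8 is the collagenase of neutrophils and reached the array median in 5 arrays only. It lies in 1 run of neighbouring genes with Mmp1, Mmp3, Mmp7, Mmp10, Mmp20 and Mmp27 in the GRCr8 annotation, and these 6 neighbours were all left out as low.

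Adamts1, a secreted protease that cleaves versican and aggrecan, was lower in rosiglitazone than in lean control livers. Lean control rats 1 to 5 had 5.72, 5.98, 5.68, 6.01 and 5.55, and rosiglitazone rats 5.21, 5.12, 5.25, 5.05 and 5.48. Obese rats had 5.42, 5.77, 5.26, 5.39 and 5.28, and resveratrol rats 5.24, 5.27, 5.62, 5.52 and 5.52. All lean control rats lay above all rosiglitazone rats (as for 3 matrix genes, 4.48%, against 3.25% of all genes in that comparison), while obese rat 2 and resveratrol rat 3 reached into the lean control range. The difference was -0.56 (5.22 ± 0.16 against 5.79 ± 0.20, SE 0.12, limma adjusted p = 0.0141), or 1.48-fold, and the adjusted p was 0.0502 without lean control rat 4. It was -0.36 for obese (limma adjusted p = 0.12) and -0.35 for resveratrol (limma adjusted p = 0.102) against the same lean controls.

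Adamts5, an aggrecanase whose gene lies beside Adamts1, was at 2.75 ± 0.31 in lean control and 2.22 ± 0.20 in obese livers (difference -0.53, limma adjusted p = 0.0789, and 0.0231 without lean control rat 3). Its treated groups lay between these values, at 2.57 ± 0.30 and 2.58 ± 0.19 for rosiglitazone and resveratrol. Adamts9, another protease that cleaves versican, had 3.84 ± 0.21 in lean control and 3.20 ± 0.43 and 3.24 ± 0.23 in rosiglitazone and resveratrol livers (differences -0.64 and -0.59, limma adjusted p = 0.0928 and 0.0879). Adamts1 was the 1 protease called of the 5 tested in this family.

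The glycoproteins and proteoglycans held 2 of the genes that passed the test, in opposite directions. Dcn encodes decorin, a small proteoglycan that coats collagen fibrils and binds TGF-beta. Its log2 expression was 4.26, 4.86, 4.60, 3.85 and 3.34 in lean control rats 1 to 5 and 5.36, 4.76, 5.64, 5.38 and 5.69 in rosiglitazone rats. Obese rats had 4.81, 3.94, 4.73, 4.41 and 4.52, and resveratrol rats 5.23, 4.69, 4.88, 4.41 and 4.96. The 4 highest values of the series were rosiglitazone rats, but rosiglitazone rat 2 lay below lean control rat 2 and obese rat 1. Dcn was 1.19 higher under rosiglitazone than in lean controls (5.37 ± 0.37 against 4.18 ± 0.60, SE 0.24, 95% interval 0.69 to 1.69, limma adjusted p = 0.00843), or 2.28-fold. With any 1 rat of these groups left out it was 0.98 to 1.36 higher. Against obese the difference was 0.88 (limma adjusted p = 0.0743), and without rosiglitazone rat 2 its adjusted p was 0.0349. For resveratrol the differences were 0.65 against lean control (limma adjusted p = 0.121) and 0.35 against obese (limma adjusted p = 0.945). Its neighbour, Lum, which encodes the related proteoglycan lumican, averaged 1.63 and was not tested.

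Thbs2, thrombospondin-2, is a matrix glycoprotein known to restrain blood vessel growth. Lean control rats 1 to 5 had 2.90, 3.10, 2.94, 3.07 and 3.32, and rosiglitazone rats 2.32, 2.32, 2.49, 2.59 and 2.43. Obese rats had 2.49, 2.72, 2.28, 2.86 and 2.74, and resveratrol rats 2.60, 2.52, 2.86, 2.95 and 2.36. Every lean control value lay above every obese and rosiglitazone value, and resveratrol rat 4 alone reached the lean control range. These values are low: Thbs2 exceeded the array median in 16 of the 20 arrays. Rosiglitazone rats 1 and 2, obese rat 3 and resveratrol rat 5 lay below it. Thbs2 was 0.64 lower under rosiglitazone than in lean controls (SE 0.13, 95% interval -0.91 to -0.37, limma adjusted p = 0.00757). This call held without any single rat of these groups. The differences of -0.45 for obese (limma adjusted p = 0.07) and -0.41 for resveratrol (limma adjusted p = 0.0682) against lean control were not called. The first had an adjusted p of 0.0438 without lean control rat 3, and the second of 0.0485 without resveratrol rat 4.

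Fn1, fibronectin, which hepatocytes secrete in quantity, was at 9.76, 9.57, 9.37, 9.79 and 9.86 in lean control rats 1 to 5 and 9.30, 9.11, 9.11, 9.33 and 9.34 in obese rats. Rosiglitazone rats had 9.39, 9.75, 9.68, 9.47 and 10.23, and resveratrol rats 9.28, 9.49, 9.26, 9.64 and 9.42. The obese rats lay below all lean control and all rosiglitazone rats and overlapped with the resveratrol rats. Even so, neither the obese minus lean control difference of -0.43 (SE 0.14, limma adjusted p = 0.1) nor the rosiglitazone minus obese difference of 0.47 (SE 0.14, limma adjusted p = 0.106) passed, and rosiglitazone differed from lean control by 0.03 (95% interval -0.25 to 0.32). Without lean control rat 3 the obese minus lean control difference was -0.51, with an adjusted p of 0.0391. Groups did not overlap between obese and lean control for 4 matrix genes (5.97%, against 3.53% of all genes), namely Fn1, Thbs2, Mmp2 and Col15a1.

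Sparcl1, a matricellular protein related to Sparc, gave 5.52, 5.38, 5.46, 5.59 and 5.35 in obese rats 1 to 5 and 5.83, 5.67, 6.01, 5.80 and 5.92 under rosiglitazone. The rosiglitazone rats were all above the obese rats, and the difference was 0.39 (95% interval 0.15 to 0.62, limma adjusted p = 0.103). Sparc itself, a collagen-binding protein, had group means from 6.83 to 6.95 and biglycan (Bgn) from 7.74 to 7.92, with no call.

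No collagen gene passed the test in any of the 6 comparisons. Of the 7 tested fibrillar chains, 6 were below obese in rosiglitazone and in resveratrol livers, which share the obese arrays, with medians of -0.10 and -0.12. Col1a1, a chain of type I collagen, the main collagen of scar tissue, was at 3.79, 3.60, 5.28, 4.07 and 2.97 in obese rats 1 to 5 and at 3.15, 3.29, 3.35, 3.06 and 3.38 in rosiglitazone rats. Lean control rats had 3.96, 3.98, 3.18, 3.92 and 4.05, and resveratrol rats 3.80, 3.67, 3.59, 3.28 and 3.13. The obese group spanned the values of all other groups, with rat 3 the highest and rat 5 the lowest of the series. The rosiglitazone minus obese difference of -0.70 (SE 0.28, limma adjusted p = 0.288) was -0.36 without obese rat 3.

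The other chain of type I collagen, Col1a2, was also highest in obese rat 3, at 5.44, with the other 4 obese rats between 4.41 and 4.92. Its group means ran from 4.69 in rosiglitazone to 4.92 in lean control. Col3a1, the reticular fibre collagen of the liver lobule, had means from 6.54 to 6.83 and was highest among obese rats in rat 4, at 6.96. Col5a2, which helps to start fibril formation and lies next to Col3a1, had means from 3.05 to 3.17. Col27a1 was at 2.75 ± 0.20 in resveratrol and 3.22 ± 0.31 in obese livers (difference -0.47, limma adjusted p = 0.883).

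**Figure D3:**
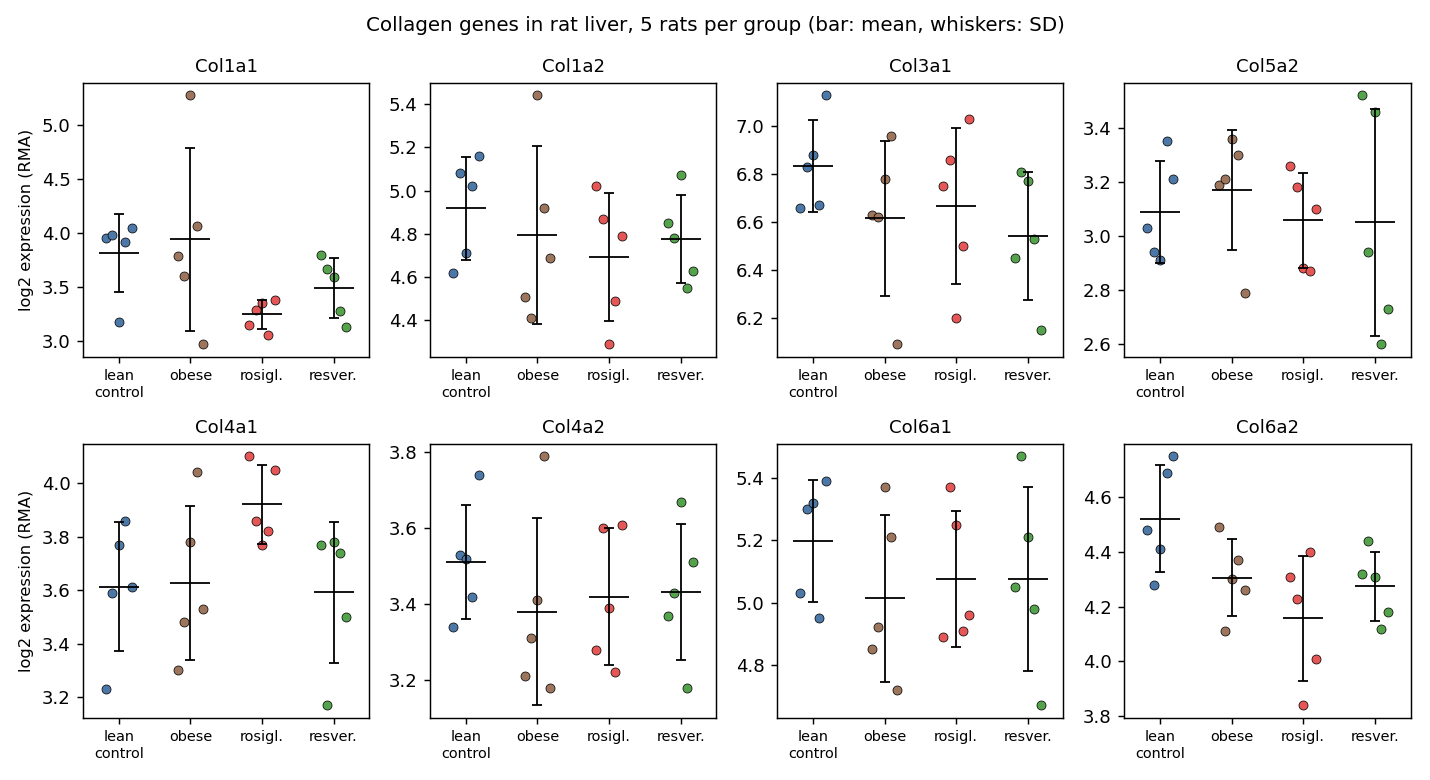
Log2 expression (y axes, which do not start at 0) of 8 collagen genes in each of the 20 livers (points), by group on the x axis, with the group mean (bar) and SD (whiskers), n = 5 per group. The groups overlap in each panel, and obese rat 3 is the highest point for Col1a1 (5.28) and Col1a2 (5.44).

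Of 12 tested basement membrane genes, none passed the test. The paired type IV chains Col4a1 and Col4a2, whose genes are neighbours, had group means of 3.59 to 3.92 and 3.38 to 3.51, and the highest Col4a1 mean was that of rosiglitazone (0.29 above obese, limma adjusted p = 0.439). Col15a1, a collagen of the basement membrane zone, was at 2.59, 2.31, 2.66, 2.34 and 2.67 in lean control rats 1 to 5 and 2.88, 2.78, 3.77, 2.95 and 2.73 in obese rats. These groups did not overlap, obese rat 3 stood highest, and the difference was 0.51 (SE 0.19, limma adjusted p = 0.167), or 0.32 without that rat. Lamb3, the beta chain of an epithelial laminin, varied most of all tested members over the 20 arrays (SD 0.61). It was at 1.75 ± 0.41 in lean control, 2.57 ± 0.73 in obese, 2.02 ± 0.43 in rosiglitazone and 2.61 ± 0.48 in resveratrol livers, and exceeded the array median in 8 arrays. Its differences of 0.82 for obese and 0.86 for resveratrol against lean control had limma adjusted p of 0.144 and 0.0987. The former was 0.52 without obese rat 1, which had 3.77, and the latter 1.04 with an adjusted p of 0.0402 without lean control rat 3. The laminin chains Lamb1 and Lamc1 had group means of 3.30 to 3.50 and 4.77 to 4.90.

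Among the other collagens, 8 of 10 were below lean control in obese livers and 8 of 10 in resveratrol livers, with medians of -0.19 and -0.09. In rosiglitazone livers it was 7 of 10, with a median of -0.12. These comparisons share the lean control arrays, and none of the 10 was called. Col6a2, a chain of the microfibrillar type VI collagen, was at 4.52 ± 0.20 in lean control and 4.16 ± 0.23 in rosiglitazone livers (difference -0.36, limma adjusted p = 0.12). Its partner and neighbour, Col6a1, had means of 5.01 to 5.20. Col6a6 was the 1 matrix gene whose rosiglitazone and resveratrol groups did not overlap (1.49%, against 3.34% of all genes), at 2.04 ± 0.17 and 2.44 ± 0.18, with a limma adjusted p of 0.324.

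Elastic fibre and microfibril genes lay above obese in rosiglitazone livers for 7 of 7 tested members, with a median of 0.23, and in resveratrol livers for 6 of 7, with a median of 0.13. None of these differences was called. Ltbp3, which tethers latent TGF-beta to the matrix, was at 2.58, 2.64, 2.71, 2.93 and 2.35 in obese rats 1 to 5 and at 3.29, 2.92, 3.31, 3.39 and 3.23 in resveratrol rats. Rosiglitazone rats had 3.04, 2.78, 3.06, 3.25 and 3.17, and lean control rats 3.18, 2.95, 2.82, 3.27 and 3.11. Obese rat 4, at 2.93, overlapped with the lowest rat of each other group, and the other 4 obese rats were below all of them. The difference from obese was 0.59 for resveratrol (SE 0.13, 95% interval 0.33 to 0.85, unadjusted p = 0.00012, limma adjusted p = 0.172) and 0.42 for rosiglitazone (limma adjusted p = 0.113). The obese mean was 0.42 below that of lean control (limma adjusted p = 0.078, and 0.0326 without lean control rat 3), while rosiglitazone and lean control had the same mean of 3.06.

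Efemp1, fibulin-3, was at 3.11 ± 0.35 in lean control, 2.50 ± 0.49 in obese and 3.15 ± 0.39 in resveratrol livers (resveratrol minus obese 0.65, limma adjusted p = 0.779). Fbln5, which helps to assemble elastic fibres, was at 3.52 ± 0.30 in obese and 3.80 ± 0.26 in resveratrol livers (limma adjusted p = 0.925). Elastin (Eln) had means of 3.07 to 3.36 and fibrillin-1 (Fbn1) of 4.21 to 4.44.

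The cross-linking enzymes of the lysyl oxidase family were all tested, and none of the 5 passed. Loxl2 was at 3.31 ± 0.26 in lean control, 2.68 ± 0.43 in obese, 2.89 ± 0.45 in rosiglitazone and 2.81 ± 0.32 in resveratrol livers, with an obese minus lean control difference of -0.63 (limma adjusted p = 0.119). The group means of Loxl4 ran from 4.64 to 5.01 with SDs of 0.45 to 0.62, and those of Loxl1 from 3.13 to 3.70 with SDs of 0.23 to 0.50. Lox reached the array median in 5 arrays.

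The 3 tested inhibitors did not differ by the test. Timp1, which is induced in fibrotic liver, had means of 3.10 to 3.32, and Timp3, which stays bound to the matrix, of 5.40 to 5.74. Tgfb1, the TGF-beta ligand most often tied to fibrosis, had means of 4.16 to 4.43. Tgfb3 was at 3.83 ± 0.27 in lean control and 3.30 ± 0.44 in obese livers (difference -0.54, limma adjusted p = 0.142).

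Genes that act with the matrix were read from 4 lists, and their counts stand against 2.42% of all genes called for rosiglitazone (1.01% higher, 1.4% lower) and 4.74% for resveratrol against lean control. Of 9 tested genes of collagen processing, Pcolce, the enhancer of procollagen C-proteinase, was the 1 called: it was 1.42 higher under rosiglitazone than in lean controls (3.76 ± 0.85 against 2.34 ± 0.48, limma adjusted p = 0.0102), with a difference from obese of 1.11 (limma adjusted p = 0.0669). Of 12 genes of TGF-beta signalling, 2 were lower under rosiglitazone than in lean controls: Ccn1, a matricellular protein, with a difference of -1.01 (limma adjusted p = 0.0417), and Tgif1, a repressor of Smad-driven transcription, with one of -0.89 (limma adjusted p = 0.00794). Of 13 matrix receptors, syndecan-4 (Sdc4) was lower in both treated groups than in lean controls, with differences of -0.66 and -0.55 for rosiglitazone and resveratrol (limma adjusted p = 0.00867 and 0.0242). Under resveratrol the integrin gene Itga9 was lower (-0.75, limma adjusted p = 0.00705) and the receptors Dag1 and Sdc1 were higher (0.49 and 0.52, limma adjusted p = 0.0451 and 0.0381) than in lean controls. None of the 4 plasmin system genes was called in any comparison, and no gene of these lists was called for obese against lean control or for either treatment against obese.

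Markers of the cells that make or border the matrix also differed between some groups. The counts of called markers stand against 1.5% of all genes called for rosiglitazone against obese and 1.81% for obese against lean control. Against lean control, 2.42% of all genes were called for rosiglitazone and 4.74% for resveratrol. The 9 stellate cell and myofibroblast markers averaged 4.44 to 4.51 per array in lean control, 4.17 to 4.51 in obese, 4.35 to 4.60 in rosiglitazone and 4.29 to 4.45 in resveratrol livers. Of these, 0 were called between rosiglitazone and obese, obese and lean control, or rosiglitazone and lean control, and Hgf was lower in resveratrol than in lean controls (-0.53, limma adjusted p = 0.0263). The 11 endothelial markers averaged 4.90 to 5.18 in lean control and 4.43 to 4.72 in obese livers, which do not overlap, and all 11 were below lean control in obese livers, 2 of them called (Cdh5 and Lyve1). All 11 were also below lean control in resveratrol livers, with a median of -0.38 and 2 called (Lyve1 and Tek). In rosiglitazone livers 9 were below lean control and 2 above, with a median of -0.28 and 0 called. The 11 markers averaged 4.52 to 5.00 in rosiglitazone and 4.54 to 4.85 in resveratrol livers. All 11 were above obese in rosiglitazone livers, with a median of 0.19, and Vwf alone was called (0.68, limma adjusted p = 0.0393).

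The 10 Kupffer cell and macrophage markers averaged 5.81 to 6.31 in rosiglitazone livers, above the 4.97 to 5.21 of obese livers. All 10 were above obese, with a median of 0.78, and 9 were called, against 1.5% of all genes. The exception was Adgre1 (0.62, limma adjusted p = 0.1). Against lean control, all 10 were below in obese livers (median -0.52, C1qa and Cd5l called), 9 were below in resveratrol livers (median -0.37, C1qa and Clec4f called) and all 10 were above in rosiglitazone livers (median 0.33, Marco and Cd5l called). Their range was 5.16 to 5.85 in lean control and 5.15 to 5.44 in resveratrol livers. All Kupffer cell and endothelial markers with a probe set passed the filter. The mean of the 67 matrix genes was 3.68 to 3.77 in lean control, 3.56 to 3.75 in obese, 3.66 to 3.82 in rosiglitazone and 3.61 to 3.74 in resveratrol livers, so the groups overlapped. The part of these cell types in the values of Mmp23, Mmp2, Thbs2, Adamts1 and Dcn was not tested.

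**Figure D4:**
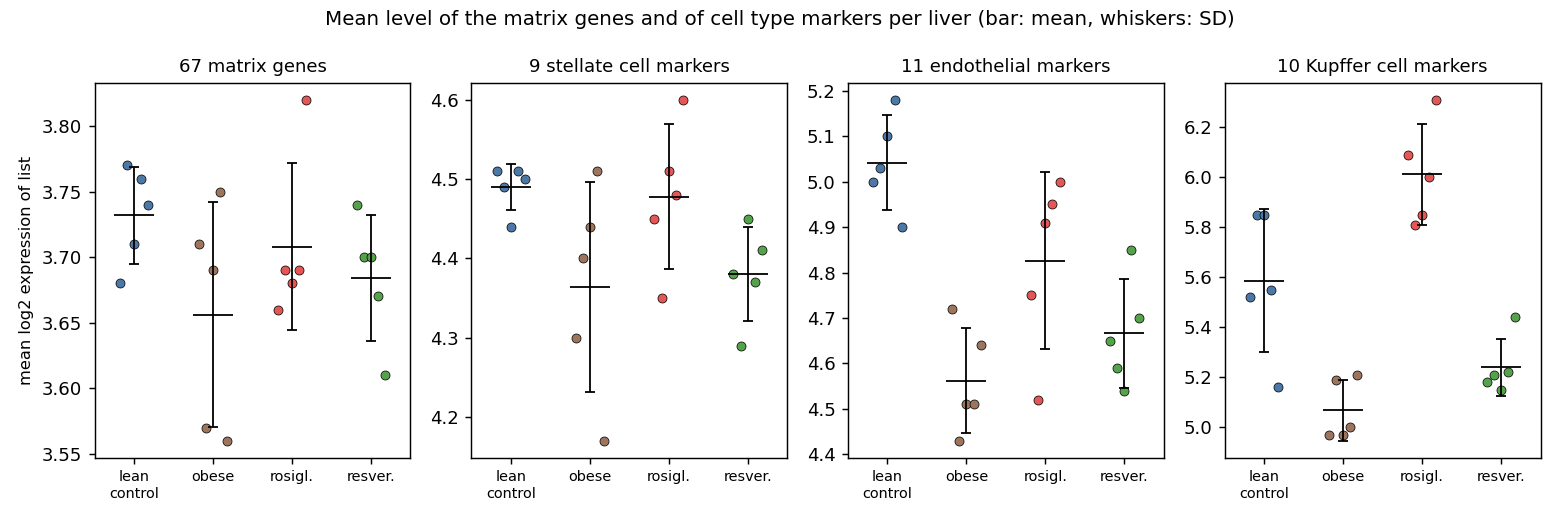
Mean log2 expression per liver (y axes, which do not start at 0) of the 67 tested matrix genes and of 3 lists of cell type markers, by group on the x axis, with points for the 20 livers, the group mean (bar) and SD (whiskers), n = 5 per group. The matrix gene means overlap between groups, from 3.56 to 3.82, while the Kupffer cell markers of rosiglitazone livers (5.81 to 6.31) lie above those of obese livers (4.97 to 5.21).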

How the data were processed

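Liver RNA (100 ng per rat, biotin-labelled) had been hybridised to Affymetrix Rat Gene 2.1 ST arrays. The authors deposited log2 expression values normalized by RMA (robust multi-array average, named in the submitters' processing notes), with no version or annotation release given in the sources used here. This table held 36685 probe sets on 20 arrays, and no column was left without a sample. Platform annotation named 1 gene for 14824 probe sets, several for 829 and none for 21032, and only the first were used. All 95 matrix gene symbols were found in the RefSeq GRCr8 table, which gave names and neighbours only, because the array's own build was not stated.

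The 4 group means were fitted to all 20 arrays with limma 3.58.1 (R 4.3.3), with lmFit, contrasts and eBayes, two-sided, and no covariate. Genes above the array's median in at least 5 arrays were tested (9481), and p-values were adjusted over all of them by Benjamini-Hochberg at 0.05. The fit had 16 residual and 5.4 prior degrees of freedom, and the median residual SD was 0.242 for all genes and 0.256 for the matrix genes. The script was tested on simulated data. Named genes were, in each comparison, the called members and those with the smallest p up to 8 in all, plus a fixed set of 30, of which 22 were tested. Col15a1, named for groups that do not overlap, and genes named for low values or large spread, were added after their values were seen. The members, role groups and lists were chosen with earlier results of these data known. The alternatives were no filter or a stricter one, a filter on the mean, repeated quantile normalization and median-centred arrays. Others were a fit of the compared groups only, a mean-variance trend, array weights, a replicate block and averaged probe sets for genes with several. Each array of the compared groups was also left out in turn.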

Additional observations from a re-analysis of the deposited data

Results flagged for a closer look

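In 8 of 156 gene-by-group sets of 5 rats (39 named genes in 4 groups), 1 rat lay farther from the others than Dixon's critical ratio of 0.71. Chance flags about 1 in 20 such sets, which is about the share seen here. Mmp2 was 4.50 in resveratrol rat 2, with the other 4 rats of that group between 3.74 and 3.94. The same rat had the lowest Col4a5 of its group, 3.14 against 3.27 to 3.30. In lean control rat 3, Col1a1 was 3.18 against 3.92 to 4.05 in the rest of the group, and Sparc was 7.16 against 6.87 to 6.93. Lean control rat 2 had Adamts9 at 3.47 against 3.87 to 3.96 and Lox at 1.22 against 2.06 to 2.34. In the rosiglitazone group, rat 4 had Adamts8 at 2.45 against 2.78 to 2.90, and rat 5 had Sparc at 6.95 against 6.79 to 6.83.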

How the results depend on the processing

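The count of called matrix genes was 0 for resveratrol against obese and for rosiglitazone against resveratrol under every alternative run. For obese against lean control it went from 0 to 1 with array weights (Thbs2) and to 0 to 4 with 1 array left out. The 4 appeared without lean control rat 3, and were Adamts5, Fn1, Ltbp3 and Thbs2, all lower in obese. For rosiglitazone against obese it went from 1 to 2 when only the compared groups were fitted and with array weights (Dcn joined Mmp23), and to 1 to 2 with 1 array left out. For rosiglitazone against lean control it went from 5 to 3 with the filter at percentile 75, under which 20 matrix genes were tested. Mmp23 and Thbs2, with means of 2.92 and 2.69 over all arrays, were left out by that filter. It therefore gave no test of them in any comparison. The count for rosiglitazone against lean control also went to 3 with only the compared groups. It went to 3 to 5 with 1 array left out, the 3 without lean control rat 4. For resveratrol against lean control it went from 1 to 0 with no filter, with only the compared groups, with the mean-variance trend and with array weights, and to 0 to 2 with 1 array left out. Apart from the genes left out at percentile 75, the cause of these changes was not tested. The share of all genes called in each of these fits is not given beside the counts. The changes are therefore not read as particular to matrix genes. Among the 48 differences named for their p or call, no sign changed in 926 recomputations, of which 26 lost a call and 15 gained one. Settings whose filter left a gene untested gave no recomputation, so a call lost that way is not counted. Among the 60 named from the fixed set alone, 42 of 1174 recomputations changed sign, none from a difference above 0.18, and 0 were called.

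Same-numbered rats of different groups did not deviate together: the correlations of their deviations averaged -0.03 to -0.01, and 4 of 20 arrays correlated best with their own number. The values thus gave no sign of pairing by number, which does not exclude it. With the replicate block the counts were 0 for obese against lean control, 1 for rosiglitazone against obese, 0 for resveratrol against obese, 0 for rosiglitazone against resveratrol, 5 for rosiglitazone against lean control and 1 for resveratrol against lean control.

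With 5 rats per group, differences as large as 0.88 on the log2 scale (Dcn, rosiglitazone against obese) missed the threshold. The 28 matrix genes under the filter, which include Mmp9, Lum and Postn, were left out of the main fit. They entered the fit with no filter, but their differences are not described here. Probe sets of related genes were not checked for shared sequence.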
